A study of Mus musculus with 17 samples.

Results

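Genes of DNA replication and mitosis were followed in the hearts of mice with a heart-driven mtDNA mutator. The set holds 34 genes, taken by name from a table of 56748 genes, and each name matched 1 row. The hMut mice carried the genotype *Polg* iMut/iMut; +/Ckmm-cre, in which a Cre recombinase under the muscle creatine kinase promoter switches an inducible *Polg* allele to a proofreading-deficient mtDNA polymerase. This promoter acts in heart and skeletal muscle cells, so immune cells, fibroblasts and endothelial cells of the same hearts are not its targets. The comparison mice are labelled control (Ctrl), and the labels give no further genotype for them. Polyadenylated RNA was sequenced from whole-heart tissue of 17 untreated mice aged 12 to 16 months, 9 hMut and 8 Ctrl, with 1 library per heart. The purpose of the series was to compare the transcriptomes of the 2 genotypes, and here the question was whether cell cycle transcripts differed between them and from heart to heart.

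Cells divide after copying their genome in S phase and separating the copies in mitosis. The MCM proteins form the helicase that opens DNA at replication forks, PCNA is the clamp that holds the polymerases, and RRM1, RRM2, TYMS and TK1 make or recover DNA building blocks. Cyclins bound to cyclin-dependent kinases drive each step, while Polo-like and Aurora kinases, spindle motors and kinetochore proteins move the chromosomes, and the anaphase-promoting complex with CDC20 and UBE2C ends mitosis. Adult cardiomyocytes rarely divide, and the dividing cells of the adult heart are mostly its other cell types. In whole-tissue RNA, fewer cells of a type and less RNA per cell cannot be told apart.

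Transcription of these genes is known to run through short promoter elements, the cell cycle genes homology region (CHR) of many mitotic genes and the E2F site of many replication genes. Promoter windows of RefSeq (build GRCm38.p6, from 250 bases before to 50 bases after the gene start) were matched by symbol for 28 of the 34 genes. *Kif20a*, *Ccne2*, *Ccna2*, *Aurkb*, *Tpx2* and *Mcm4* had none. The 28 genes had 30 windows, and a gene was counted if any of its windows held the letters. The letters TTTGAA or TTTAAA, searched as the CHR on both strands, were found for 20 of the 28 genes (71.4%). The share was 30.6% of all 27025 genes with a window. By role they were found for 4 of 4 cyclin and *Cdk1* genes, 6 of 7 mitotic kinase and checkpoint genes and 6 of 7 spindle and chromosome genes. For the MCM helicase and for S phase supply it was 2 of 5 genes each. The 8-letter E2F sites TTTGGCGC, TTTCCCGC, TTTGCCGC and TTTCGCGC were found for 5 genes (17.9%, against 2.6% of all genes). These were *Mcm3*, *Mcm5*, *Mcm6*, *Mcm7* and *Cdk1*. CCAAT, the letters of the NF-Y box, were found for 23 genes (82.1%, against 41.1%). A match is a description of the letters and no evidence of binding.

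The following 60-base stretches show these letters in the genes that the heart-to-heart pattern below turns on, with the motif in capitals, read in the direction of transcription. *Top2a* carries TTTGAA on the other strand, so its letters read TTCAAA here, and in *Mcm5* 2 E2F sites on opposite strands overlap. *Cenpf* is shown because it holds the letters as well and yet ran against the other mitotic genes.
Cdk1 (chr10:69352913-69352972, minus strand): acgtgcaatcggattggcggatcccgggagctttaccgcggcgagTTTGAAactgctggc
Cdc20 (chr4:118437344-118437403, minus strand): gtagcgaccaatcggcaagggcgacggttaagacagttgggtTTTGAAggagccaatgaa
Mki67 (chr7:135716445-135716504, minus strand): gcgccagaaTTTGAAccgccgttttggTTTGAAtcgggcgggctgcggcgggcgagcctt
Top2a (chr11:99024190-99024249, minus strand): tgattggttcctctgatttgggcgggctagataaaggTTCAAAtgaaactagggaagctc
Plk1 (chr7:122159375-122159434, plus strand): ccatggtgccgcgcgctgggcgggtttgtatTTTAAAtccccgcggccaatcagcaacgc
Cenpf (chr1:189688208-189688267, minus strand): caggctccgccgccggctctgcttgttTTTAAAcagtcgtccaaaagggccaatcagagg
Mcm5 (chr8:75109334-75109393, plus strand): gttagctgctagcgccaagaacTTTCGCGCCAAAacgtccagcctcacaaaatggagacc
Mcm6 (chr1:128359719-128359778, minus strand): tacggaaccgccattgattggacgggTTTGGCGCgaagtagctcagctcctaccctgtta

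Total counts per heart lay between 32915159 and 46486964. Transcripts encoded by mtDNA took 23.5% to 30.9% of the counts in Ctrl and 15.9% to 23.0% in hMut hearts. *Polg* itself was at 47.0 to 65.1 CPM (normalized counts scaled to a common library size) in hMut and at 27.1 to 47.2 CPM in Ctrl, and 8 of 9 hMut hearts lay above every Ctrl heart. Counts per gene do not read the engineered change. Cardiomyocyte markers, which define the labelled tissue, summed to at least 32642 CPM in every Ctrl heart and to 23248 CPM in the lowest hMut heart, hMut 9. Sex is not labelled, and *Xist* and Y-linked counts put 3 Ctrl and 2 hMut hearts with females. hMut 6 and hMut 9 stood apart from the other hMut hearts in macrophage and cardiomyocyte transcripts, and Ctrl 3 in lymphocyte transcripts. Member and pathway results that rest on hMut 6 and hMut 9 are therefore given with and without them.

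No member differed between hMut and Ctrl hearts at an adjusted p under 0.05 (quasi-likelihood test of edgeR, adjusted by Benjamini-Hochberg over all 16195 tested genes). All 34 members passed the filter on low counts, and 0 were higher and 0 lower, beside 4.62% of all tested genes that were called, 3.48% higher and 1.14% lower. With DESeq2 0 members were called as well, beside 9.80% of all genes with an adjusted p. limma-voom with sample quality weights called 1, *Rrm1*, beside 12.8% of all tested genes. At an unadjusted p under 0.05, edgeR gave 1 member, *Mcm3*, DESeq2 2 and limma-voom 5. Over all tested genes edgeR gave 4178 (25.8%), DESeq2 4717 of 35739 and limma-voom 4812 of 16195. The log2 fold changes of hMut over Ctrl were above 0 for 26 of the 34 members, with a median of 0.22, against 50.5% of all tested genes with a median of 0.00. They ran from -0.65 for *Cenpf* to 0.60 for *Cenpe*, and the hMut and Ctrl ranges overlapped for all 34.

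This lean to positive values depended on which hearts were kept. Without hMut 6 and hMut 9, 15 of the 34 log2 fold changes were above 0, their median was -0.03, and 0 members were called (edgeR, with 2 at an unadjusted p under 0.05, both lower in hMut: *Rrm1* and *Mcm4*). Over all genes of that fit, 3010 of 16159 had an unadjusted p under 0.05. Without hMut 6 alone, 19 member log2 fold changes were above 0 with a median of 0.03. Leaving out Ctrl 8, the Ctrl heart with the lowest values, gave 23 above 0 and a median of 0.12. Leaving out hMut 2, the hMut heart with the lowest values, gave 27 above 0 and a median of 0.31. In that fit 5 members had an unadjusted p under 0.05 and 0 were called (edgeR), beside 5109 and 1792 of 16136 tested genes. Taking the highest hearts out of 1 group only lowers that group by construction, so these fits show dependence on single hearts and no more. The 95% intervals of the fit lay within -1 to 1 on the log2 scale for 27 members, and the highest upper bound was 1.27, for *Plk1*, and the upper bound passed 1, a doubling, for 6 members.

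**Figure D1:**
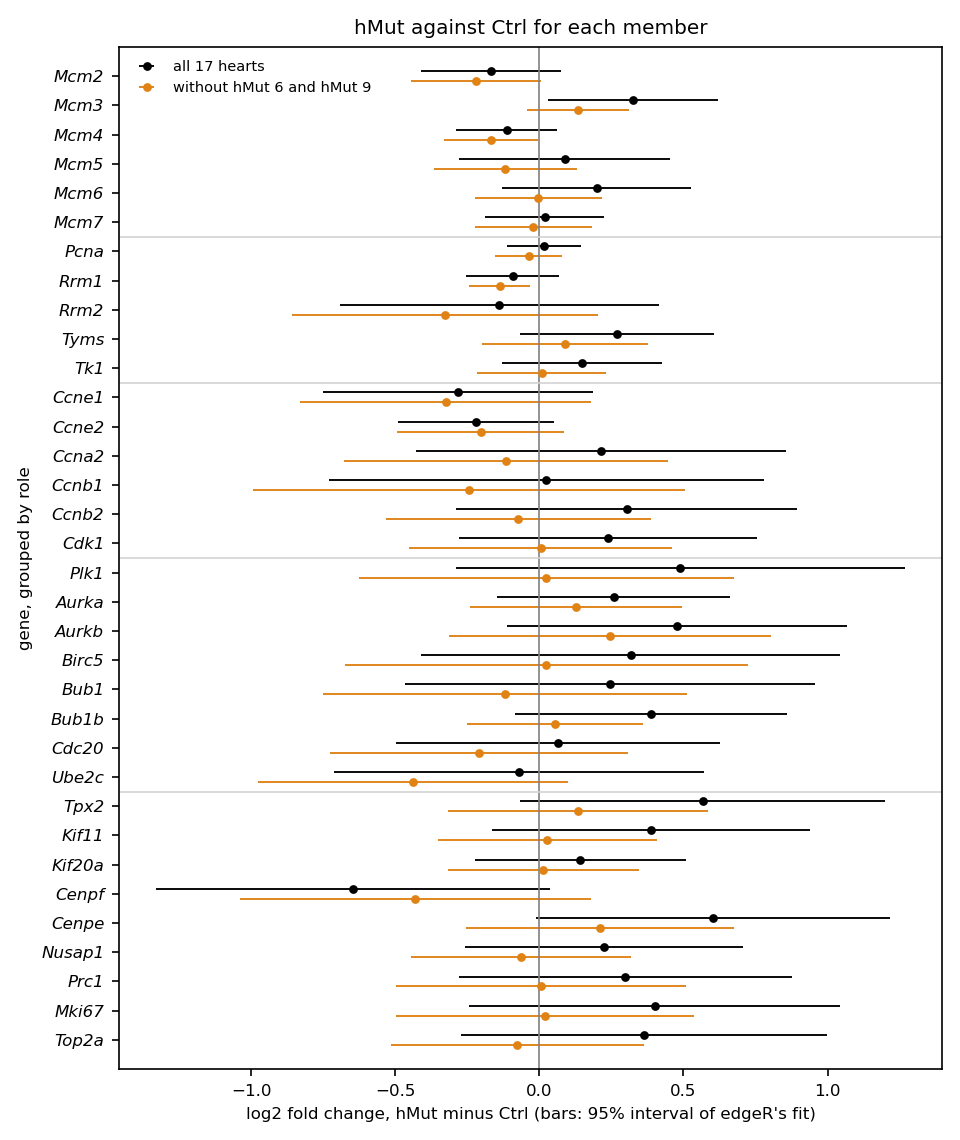
Log2 fold change of hMut over Ctrl (horizontal axis) for each member (vertical axis, grouped by role), with 95% intervals of edgeR's fit. Black points use all 17 hearts and orange points leave out hMut 6 and hMut 9, and 26 black points but 15 orange points lie above 0.

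The members were not abundant. Over all hearts their median level was 3.06 CPM, against 12.0 CPM for all tested genes, and 28.8% of tested genes lay below that median. Mean counts per heart ran from 35.9 for *Bub1* to 895 for *Pcna*, and the lowest count of any member in any heart was 11, above the floor of 3 counts. Per kilobase of gene length in the table, the mean Ctrl level was highest for *Pcna* (9.81 CPM per kilobase), followed by *Mcm4* (2.90) and *Mcm7* (2.74), and lowest for *Cenpe* (0.133). Replication genes were steadier between Ctrl hearts than mitotic genes. The SD of log2 CPM over the 8 Ctrl hearts had a median of 0.20 over the 11 MCM and S phase supply genes (range 0.06 to 0.59) and of 0.58 over the 17 mitotic kinase, checkpoint and spindle genes (range 0.31 to 0.94), most of which also had lower counts.

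The 6 MCM helicase genes had a median log2 fold change of 0.05. *Mcm7* (chromosome 5, 138162845 to 138170684, minus strand, GRCm39), the subunit with the highest CPM, was at 10.3, 12.0 and 14.1 CPM (lowest, median and highest) in Ctrl and at 8.72, 12.4 and 15.3 CPM in hMut. hMut 6 was the highest heart and hMut 5 the lowest, and the groups overlapped almost completely (log2 fold change 0.02, SE 0.10, adjusted p = 0.926, edgeR). *Mcm7* overlaps *Cops6* and *Ap4m1* on the other strand, so its counts are uncertain. *Mcm3* was the member with the smallest p. It was at 6.90 to 8.75 CPM in Ctrl and at 6.13 to 16.98 CPM in hMut, above every Ctrl heart in 6 of 9 hMut hearts and below every Ctrl heart in 1 (log2 fold change 0.32, SE 0.14, adjusted p = 0.159, edgeR). Without hMut 6 and hMut 9 its log2 fold change was 0.13 with an adjusted p of 0.411 (edgeR). *Mcm2* and *Mcm4* had log2 fold changes of -0.17 and -0.11, with 5 and 4 hMut hearts below every Ctrl heart. *Mcm5* and *Mcm6* stood at 0.09 and 0.20, and hMut 6 alone was far from the rest, at 12.1 CPM of *Mcm5* against a Ctrl maximum of 7.18 and at 22.2 CPM of *Mcm6* against 12.9.

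The 5 genes of the clamp and nucleotide supply had a median log2 fold change of 0.02. *Pcna* (chromosome 2, 132091082 to 132095234, minus strand) was at 21.3, 23.5 and 25.8 CPM in Ctrl and at 21.1, 23.0 and 27.7 CPM in hMut. Its hearts were mixed between the groups, with hMut 6 the highest and hMut 5 the lowest, and its interval was the narrowest of the members (log2 fold change 0.02, 95% interval -0.11 to 0.14, adjusted p = 0.884, edgeR). It overlaps the non-coding gene *AV099323*, which held 3.88 counts per heart. *Rrm1*, the large subunit of ribonucleotide reductase, lay in a tight Ctrl band of 20.8 to 23.2 CPM, and 7 of 9 hMut hearts were below all of it, while hMut 6 was above it at 27.9 CPM. Its log2 fold change was -0.09 (SE 0.08, adjusted p = 0.452, edgeR) over all hearts and -0.14 (SE 0.05, adjusted p = 0.149, edgeR) without hMut 6 and hMut 9. limma-voom with quality weights, which gives less weight to hearts that stand apart, put it at -0.15 with an adjusted p of 0.0473. That fit called 12.8% of all tested genes. *Rrm2*, the small subunit that is made in S phase, ran from 2.97 to 9.68 CPM in Ctrl and from 3.41 to 10.4 CPM in hMut. *Tyms* and *Tk1*, the thymidylate enzymes, had log2 fold changes of 0.27 and 0.15, with 1 hMut heart each, hMut 6, above every Ctrl heart. *Tk1* overlaps *Afmid*.

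The 6 cyclin and *Cdk1* genes had a median log2 fold change of 0.12. *Ccne1* and *Ccne2*, the E-type cyclins that act at S phase entry, were highest in Ctrl 3 and had log2 fold changes of -0.28 and -0.22, with 0 hMut hearts above every Ctrl heart and 4 and 2 below. *Ccna2* (chromosome 3, 36619014 to 36626299, minus strand), cyclin A2 of S phase and G2, was at 1.67, 2.94 and 5.74 CPM in Ctrl and at 1.32, 3.53 and 8.31 CPM in hMut. hMut 6 was highest and hMut 2 lowest, and the other 7 hMut hearts lay inside the Ctrl range (log2 fold change 0.21, SE 0.31, adjusted p = 0.677, edgeR). *Ccnb1*, *Ccnb2* and their partner *Cdk1*, which together start mitosis, had log2 fold changes of 0.02, 0.30 and 0.24, and each was highest in hMut 6 and lowest in Ctrl 8. Without hMut 6 and hMut 9 the log2 fold changes were -0.12 for *Ccna2*, -0.25 for *Ccnb1*, -0.07 for *Ccnb2* and 0.0039 for *Cdk1*, beside -0.33 for *Ccne1* and -0.20 for *Ccne2*. *Ccne2* overlaps *Ints8* and *Ccna2* overlaps *Exosc9*, both with more counts than the cyclin.

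The 8 mitotic kinase, checkpoint and anaphase-promoting complex genes had a median log2 fold change of 0.29, and 7 were above 0. *Cdc20* (chromosome 4, 118290098 to 118294549, minus strand), the activator of the anaphase-promoting complex, was at 1.09, 3.005 and 3.90 CPM in Ctrl and at 0.963, 2.89 and 5.33 CPM in hMut. Only hMut 6 and hMut 9 were above every Ctrl heart, and hMut 2 was below all of them (log2 fold change 0.06, SE 0.27, adjusted p = 0.898, edgeR). *Cdc20* overlaps *Elovl1* on the other strand, which has more counts, so its values are uncertain. *Plk1* and *Aurkb*, the Polo-like and Aurora B kinases, had the highest values of the group, 0.49 (SE 0.37) and 0.48 (SE 0.28), and 4 hMut hearts each lay above every Ctrl heart. *Birc5*, the survivin partner of Aurora B, was at 0.32, *Aurka* at 0.26, and the checkpoint kinases *Bub1* and *Bub1b* at 0.24 and 0.39 on the same scale. *Ube2c*, the ubiquitin-conjugating enzyme of the complex, was at -0.07 over all hearts and at -0.44 (SE 0.26, adjusted p = 0.375, edgeR) without hMut 6 and hMut 9. It overlaps *Tnnc2*, which held 0.0588 counts per heart.

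The 9 spindle, kinetochore and chromosome genes held both ends of the range. *Cenpe* (chromosome 3, 134918298 to 134979372, plus strand), a kinetochore motor, was at 0.650, 1.17 and 1.58 CPM in Ctrl and at 0.743, 1.65 and 4.24 CPM in hMut. Its level was above every Ctrl heart in 5 of 9 hMut hearts, and the remaining 4 lay inside the Ctrl range (log2 fold change 0.60, SE 0.29, adjusted p = 0.199, edgeR). Without hMut 6 and hMut 9 its log2 fold change was 0.21 (SE 0.22). *Mki67* (chromosome 7, 135291513 to 135318090, minus strand), which encodes the Ki-67 protein used to stain dividing cells, was at 2.72, 6.32 and 12.8 CPM in Ctrl and at 3.55, 7.19 and 20.6 CPM in hMut. hMut 6 was the only hMut heart above every Ctrl heart, hMut 9 followed at 10.9 CPM below Ctrl 3 at 12.8 CPM, and the lowest hearts were Ctrl 8 and hMut 2. Its log2 fold change was 0.40 (SE 0.31, adjusted p = 0.408, edgeR) and became 0.02 (SE 0.25) without hMut 6 and hMut 9. *Top2a*, the topoisomerase that untangles sister chromosomes, reached 22.9 CPM in hMut 6 and 10.01 CPM in hMut 9, against 2.74 to 9.23 CPM in Ctrl and 3.63 to 8.42 CPM in the other hMut hearts. *Tpx2* and *Kif11*, which build the spindle, had log2 fold changes of 0.57 and 0.39, and *Prc1*, *Nusap1* and *Kif20a*, which act on the midzone and spindle microtubules, of 0.30, 0.22 and 0.14. *Prc1* overlaps *Rccd1*, *Kif20a* overlaps *Cdc23* and *Nusap1* overlaps *Oip5*.

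*Cenpf* (chromosome 1, 189372803 to 189420283, minus strand), a large kinetochore and nuclear envelope protein, behaved differently from the rest. It was at 7.56, 19.8 and 43.9 CPM in Ctrl and at 5.77, 15.1 and 29.9 CPM in hMut. Ctrl 8, the lowest heart for 18 of the 34 members, was its highest heart. By contrast hMut 6, the highest heart for 30 members, was at 8.24 CPM, and hMut 9 was at 5.77 CPM. The groups overlapped, with 1 hMut heart below every Ctrl heart (log2 fold change -0.65, SE 0.33, adjusted p = 0.215, edgeR). At 1.63 CPM per kilobase in Ctrl its level was also above those of *Cenpe* (0.133) and *Mki67* (0.657).

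**Figure D2:**
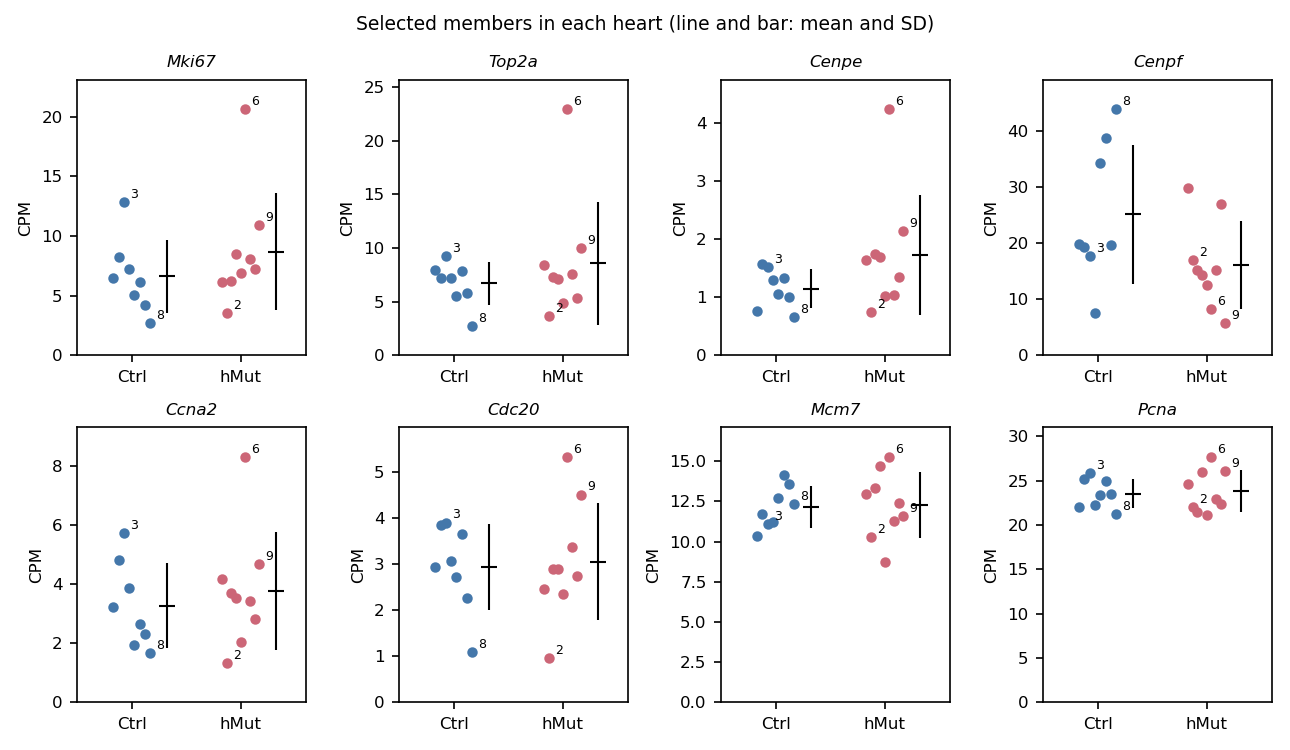
CPM of 8 members in each Ctrl (blue, n = 8) and hMut heart (red, n = 9), with a line and bar for the mean and SD and numbers beside hMut 2, 6 and 9 and Ctrl 3 and 8. *Top2a* was added after its values were seen. hMut 6 is the highest heart in every panel except *Cenpf*, where Ctrl 8 is highest at 43.9 CPM.

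Heart by heart, hMut 6 stood above the others. It was the highest of all 17 hearts for 30 of the 34 members and above every Ctrl heart for the same number. The exceptions were *Mcm2*, *Ccne1*, *Ccne2* and *Cenpf*. High values in this heart were not confined to the members. Of the lists read below, it was above every Ctrl heart for 18 of 24 G1 drivers and 29 of 46 origin licensing and fork genes. The same held for 12 of 30 nucleotide supply genes and 11 of 23 cell cycle brakes. The share over all tested genes was not computed. Its level over the Ctrl mean had a median of 2.13-fold over the members. By role the median was 1.66-fold for the MCM helicase, 1.68-fold for S phase supply, 2.14-fold for cyclins and *Cdk1*, 2.57-fold for mitotic kinases and checkpoint genes and 3.12-fold for spindle and chromosome genes, with the highest single value of 3.78-fold for *Tpx2*. The 20 members with CHR letters had a median of 2.27-fold in this heart and the 8 without them 1.98-fold, while the letters themselves are unevenly spread over the roles. hMut 9 came next, as the second highest heart for 13 members and above every Ctrl heart for 14, with a median of 1.33-fold.

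The remaining hMut hearts did not share this. The median over the members of log2 CPM minus the Ctrl mean was 1.15 in hMut 6 and 0.51 in hMut 9. In the other hMut hearts it was 0.18 (hMut 1), 0.14 (hMut 4), 0.13 (hMut 3), 0.03 (hMut 8), -0.01 (hMut 7), -0.06 (hMut 5) and -0.54 (hMut 2). These values lie within the Ctrl range of -0.69 in Ctrl 8 to 0.34 in Ctrl 3. hMut 2 was below every Ctrl heart for 12 members, and the summed level of all members ran from 143 CPM there to 318 CPM in hMut 6, against 171 to 224 CPM in Ctrl.

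**Figure D3:**
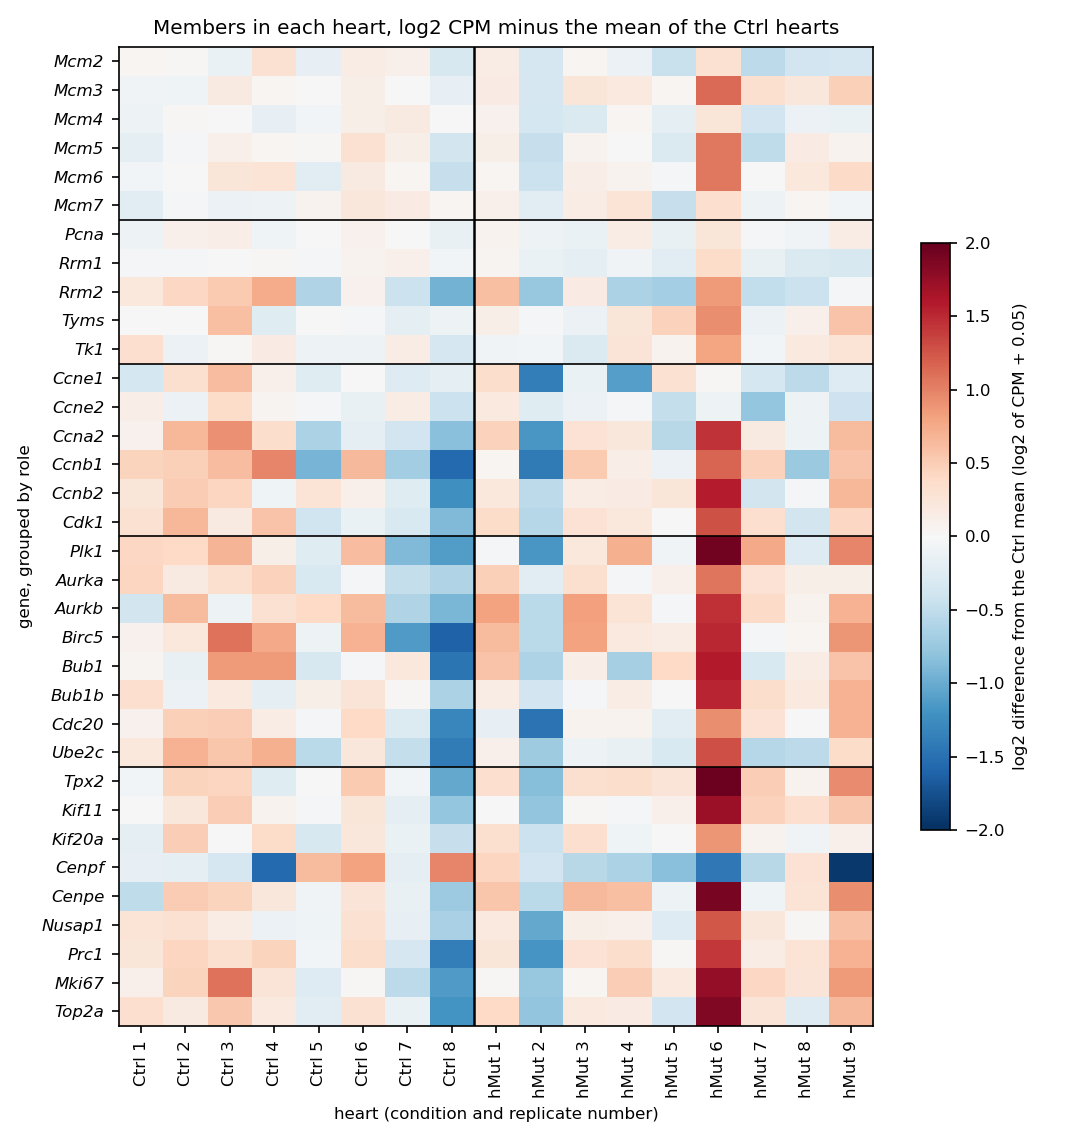
Log2 CPM minus the mean of the 8 Ctrl hearts (colour, red higher and blue lower) for each member (rows, grouped by role) in each heart (columns). The column of hMut 6 is red for most members and that of Ctrl 8 blue for most, and the row of *Cenpf* runs against both.

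Markers of macrophages and fibroblasts were high in hMut 6 and hMut 9, and most of the T and NK cell list in hMut 6. Of 7 B and plasma cell markers, 0 were above every Ctrl heart in hMut 6 or in hMut 9. Of 6 neutrophil markers, 1 in hMut 6 and 2 in hMut 9 were above every Ctrl heart. The summed level of 13 macrophage and monocyte markers was 1378 CPM in hMut 6 and 698 CPM in hMut 9, against 258 to 390 CPM in Ctrl and 326 to 434 CPM in the other hMut hearts, and 13 and 12 of the 13 markers were above every Ctrl heart. The 14 T and NK cell markers summed to 116 CPM in hMut 6, with 12 of 14 above every Ctrl heart, and to 12.3 CPM in hMut 9, with 3 of 14, against 3.63 to 16.996 CPM in Ctrl. The exceptions in hMut 6 were the NK cell marker *Klrb1c*, at 0.332 CPM against a Ctrl maximum of 0.381, and *Gzma*, at 0.616 against 0.817. Fibroblast markers summed to 1464 CPM in hMut 6 and 1199 CPM in hMut 9, with 5 of 6 above every Ctrl heart in each. They summed to 780 to 920 CPM in Ctrl and to 790 to 963 CPM in the other hMut hearts. Activated fibroblast markers summed to 585 and 479 CPM, against 124 to 247 CPM in Ctrl, with 5 and 4 of 6 above every Ctrl heart. In the other hMut hearts they summed to 137 to 318 CPM, and hMut 5, hMut 7 and hMut 8 also passed every Ctrl heart. Among them *Postn*, a matrix protein of activated fibroblasts, was at 307 CPM in hMut 6 and 207 CPM in hMut 9. It was at most at 50.3 CPM in Ctrl, and 6 of 9 hMut hearts were above every Ctrl heart. In Ctrl 3, the highest Ctrl heart for 13 members, 7 of 7 B and plasma cell markers were the highest of Ctrl and summed to 70.7 CPM (Ctrl median 7.18). Of the 8 cardiomyocyte markers, 7 were below every Ctrl heart in hMut 6 and 7 in hMut 9. Low values were not confined to these 2 hearts. *Tnni3* was below every Ctrl heart in 8 of 9 hMut hearts, and *Tnnt2*, *Pln* and *Myl2* in 7 each. *Myh6* was below every Ctrl heart in 3 hMut hearts, *Ryr2* in 2, and *Actn2* and *Ttn* in 1 each. No marker of these lists was at 0 in all Ctrl hearts. Between the groups 0 of 13 tested macrophage, 0 of 10 tested T and NK and 0 of 8 tested cardiomyocyte markers were called (edgeR, with 6, 5 and 6 at an unadjusted p under 0.05). In the same fit 25.8% of all tested genes had an unadjusted p under 0.05. Called higher in hMut was *Meox1*, 1 of 5 tested activated fibroblast markers (log2 fold change 1.09, SE 0.25, adjusted p = 0.0174, edgeR). So were *Kdr*, 1 of 6 endothelial markers (0.39, SE 0.10, adjusted p = 0.0407, edgeR), and *Bmp10*, 1 of 3 tested atrial markers (5.58, SE 0.63, adjusted p = 3.25e-05, edgeR). *Bmp10* was at most at 0.371 CPM in Ctrl and at least at 0.605 CPM in hMut. The atrial marker *Nppa* was not called (1.16, SE 0.41, adjusted p = 0.101, edgeR). It reached 685 CPM in hMut 6, and 5 of 9 hMut hearts passed the Ctrl maximum of 164 CPM. Of 6 fibroblast markers, 0 were called (5 at an unadjusted p under 0.05). The part of immune cells, fibroblasts and endothelial cells in the levels of the members was not tested.

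**Figure D4:**
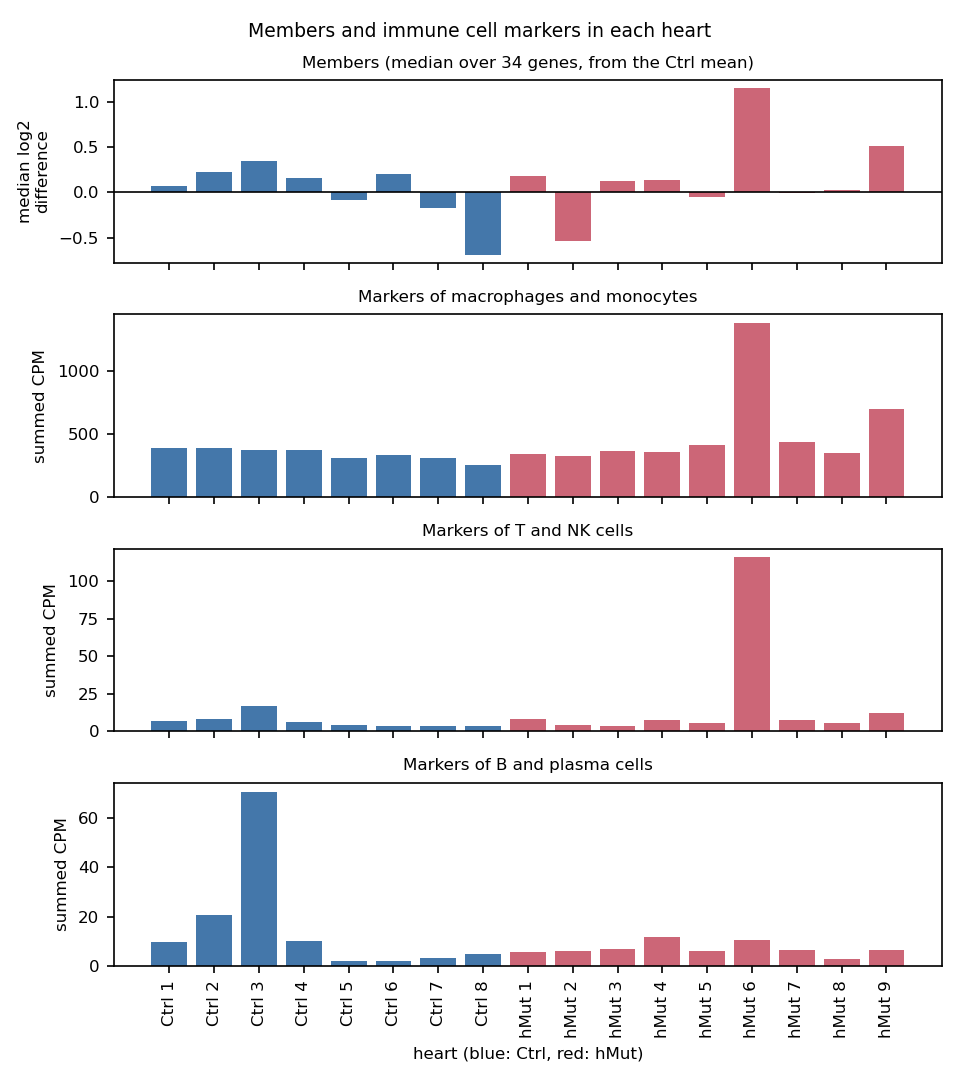
Top, median over the 34 members of log2 CPM minus the Ctrl mean in each heart. Below, summed CPM of macrophage and monocyte, T and NK, and B and plasma cell markers in the same hearts (blue Ctrl, red hMut), with hMut 6 highest in the upper 3 panels and Ctrl 3 highest in the lowest panel at 70.7 CPM.

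Genes around the members were read from hand-written lists of the same pathway, in the same fit. Counts of called genes in these lists stand beside 3.48% of all tested genes called higher and 1.14% called lower. Among 58 other mitotic genes, 50 had a log2 fold change above 0, against 50.5% of all tested genes, with a median of 0.21. Of these 58 genes, 0 were called higher and 1 lower, and in hMut 6 52 were above every Ctrl heart. Without hMut 6 and hMut 9 the median of the 58 was -0.0010. The gene that fell was *Cenpa*, the histone variant of centromeres, at 37.6 to 47.3 CPM in Ctrl and 27.7 to 43.5 CPM in hMut (log2 fold change -0.30, SE 0.08, adjusted p = 0.0449, edgeR). Among 46 genes of origin licensing and forks, 27 were above 0 and 1 fell, *Rpa1*, a subunit of the single-strand binding protein (58.4 to 70.3 CPM in Ctrl, 44.8 to 65.5 in hMut, log2 fold change -0.24, SE 0.07, adjusted p = 0.0487, edgeR). Both sat close to the threshold, and of 28 alternative fits 10 called *Cenpa* and 7 called *Rpa1*. Without hMut 6 and hMut 9 their adjusted p was 0.0924 and 0.0897 (edgeR).

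Of 23 cell cycle brakes 2 were higher and 0 lower in hMut. *Cdkn1a*, the p21 inhibitor of cyclin-dependent kinases, was at 11.6, 20.5 and 23.4 CPM in Ctrl and at 22.7, 50.1 and 78.3 CPM in hMut, with 8 of 9 hMut hearts above every Ctrl heart (log2 fold change 1.36, SE 0.22, adjusted p = 0.00147, edgeR). *Gadd45a*, a growth arrest gene induced by damage and stress, was above every Ctrl heart in 9 of 9 (log2 fold change 0.80, SE 0.13, adjusted p = 0.00156, edgeR). Of 23 tested G1 drivers only *Myc* was called, at 1.73 to 4.88 CPM in Ctrl and 3.49 to 16.8 CPM in hMut, above every Ctrl heart in 8 of 9 (log2 fold change 1.52, SE 0.27, adjusted p = 0.00359, edgeR). These 3 genes were called without hMut 6 and hMut 9 as well.

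Nucleotide supply held the most calls of the lists, with 5 of 30 genes higher and 0 lower, beside 3.48% and 1.14% of all tested genes. *Mthfd2*, a mitochondrial enzyme of the folate cycle, was at 2.44 to 5.41 CPM in Ctrl and at 20.6 to 115 CPM in hMut, so that the lowest hMut heart, hMut 2, was above the highest Ctrl heart (log2 fold change 4.07, SE 0.30, adjusted p = 3.82e-07, edgeR). Its folate cycle partner *Shmt2* had a log2 fold change of 0.31, the CTP synthase *Ctps* of 0.28 and the purine enzyme *Atic* of 0.23, each above every Ctrl heart in 7 or 8 of 9 hMut hearts. When hMut 6 and hMut 9 were left out, 4 of the 30 genes were called, and *Atic* was not (log2 fold change 0.20, adjusted p = 0.0525, edgeR). The deaminase *Dctd* was low, at 1.36 CPM on average in Ctrl and 2.09 in hMut (log2 fold change 0.62, SE 0.13, adjusted p = 0.0114, edgeR). hMut 2, the hMut heart with the lowest member levels, also had the lowest *Cdkn1a*, *Myc* and *Mthfd2* of the hMut hearts.

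**Figure D5:**
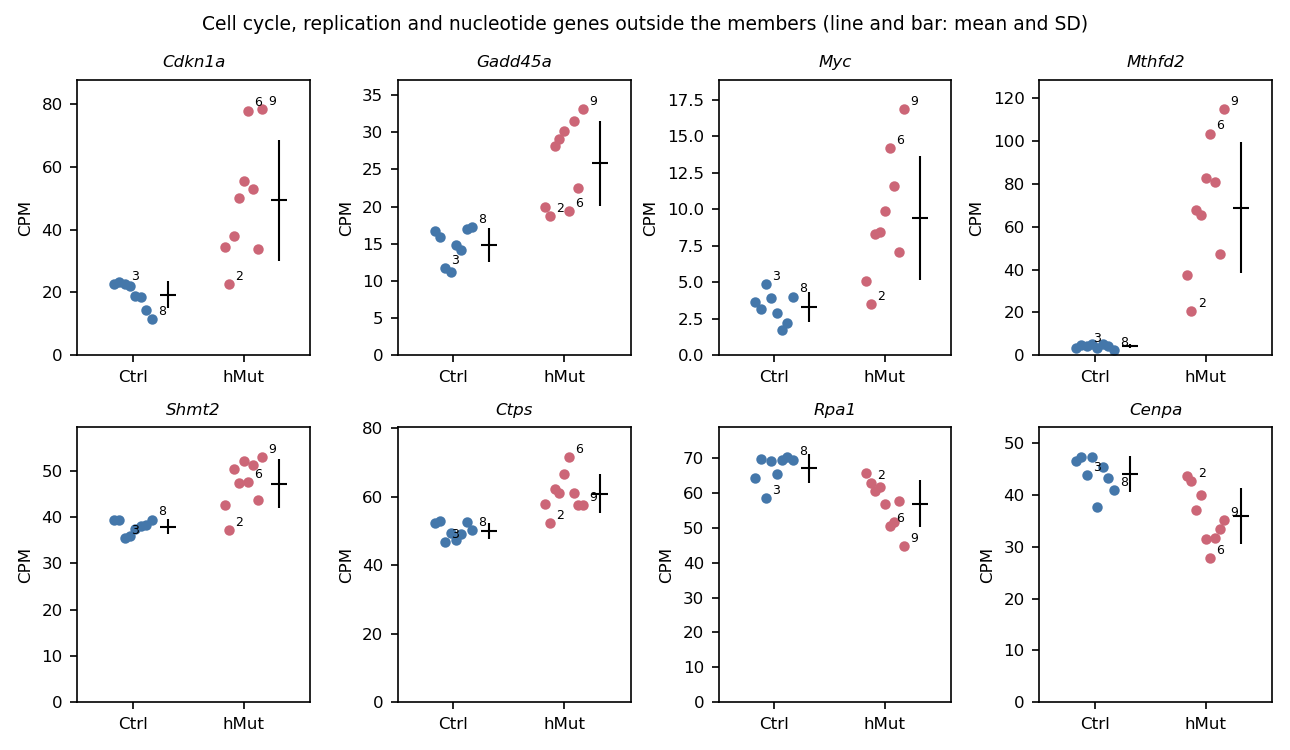
CPM of 8 called cell cycle, replication and nucleotide genes outside the member set in each Ctrl (blue, n = 8) and hMut heart (red, n = 9), with a line and bar for the mean and SD. *Mthfd2* separates the groups (at most 5.41 CPM in Ctrl, at least 20.6 CPM in hMut), while *Rpa1* and *Cenpa* overlap.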

How the data were processed

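RNA from 17 mouse hearts was sequenced by the authors after poly-A enrichment. Reads were cleaned with fastp, placed on GRCm39 by HISAT2 (version 2.2.1) and assigned to genes by featureCounts (version 2.0.6). The table deposited by the authors gives raw counts, with no normalization applied. Whether counting used strand is not given in the sources used here, so counts of members that overlap another gene are uncertain. Overlaps with genes of almost no counts, such as *Gm37239* at *Cenpf* (1.24 counts per heart), are not all named. Groups came from the sample labels.

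Counts were normalized with TMM, genes kept by filterByExpr, and condition tested with edgeR's quasi-likelihood test (version 4.0.16, R 4.3.3) on all genes, with Benjamini-Hochberg adjustment and a threshold of 0.05. The fit was also run on counts simulated with the same dispersion for every gene and no outlying heart. That simulation cannot show how the fit behaves with a heart such as hMut 6. CPM are TMM-normalized, and per-heart differences use log2(CPM + 0.05). Tables and figures used Python 3.11.15, pandas 2.3.3 and matplotlib 3.10.9. The members, their roles and all other lists were chosen with earlier results of these data known. Values by heart are given for the member with the highest CPM of each role group, the largest and smallest log2 fold change and *Mki67*, and for called pathway genes (all if 6 or fewer in a list). Other members are named by value, and *Mcm3*, *Rrm1* and *Top2a* in more detail after their values were seen. Some symbols of the pathway lists were respelled as in the table.

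Alternatives were DESeq2 (version 1.42.0, the tool the authors used), limma-voom (limma 3.58.1), other normalizations and filters, sex as a term, a replicate block, each heart left out, and, added after seeing the data, leaving out hMut 6 and 9 with Ctrl 3 and 8. Replicate numbers name different mice. Nothing says hearts were processed together, so no batch could be examined. Counting intervals and floors cover counting error only.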

Additional observations from a re-analysis of the deposited data

Results flagged for a closer look

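Of 68 groups of values (34 members in Ctrl and in hMut), 20 held a heart whose gap to its nearest neighbour passed Dixon's 95% critical value, and chance gives about 5%. The heart was hMut 6, at the top of the hMut group, in 19 of the 20. Its values in CPM were 16.98 for *Mcm3*, 12.1 for *Mcm5*, 22.2 for *Mcm6*, 27.9 for *Rrm1*, 6.61 for *Tk1*, 8.31 for *Ccna2*, 3.72 for *Ccnb2* and 4.64 for *Cdk1*. For the mitotic kinases, checkpoint and anaphase-promoting complex they were 3.46 for *Plk1*, 3.51 for *Aurka*, 2.46 for *Bub1*, 6.02 for *Bub1b* and 6.49 for *Ube2c*. For the spindle and chromosome genes they were 8.48 for *Tpx2*, 8.62 for *Kif11*, 4.41 for *Kif20a*, 4.24 for *Cenpe*, 20.6 for *Mki67* and 22.9 for *Top2a*. The remaining case was *Tyms* in Ctrl, where Ctrl 3 stood apart at 2.85 CPM.

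By the same criterion the marker sums of hMut 6 stood apart for T and NK cells (116 CPM) and for macrophages and monocytes (1378 CPM). Ctrl 3 stood apart from the other Ctrl hearts for T and NK cells (16.996 CPM), for B and plasma cells (70.7 CPM) and, at the low end, for cardiomyocytes (32642 CPM). hMut 7 stood apart for erythroid cells at 44.8 CPM. The members of 1 heart share their library, so these cases are not independent of each other, and what they have in common was not tested.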

How the results depend on the processing

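No alternative called a member except limma-voom with quality weights, which called 1 (*Rrm1*, -0.15). The count over all tested genes, 749, was 1533 with DESeq2, 2081 with limma-voom, 463 with no filter, 431 without hMut 6 and 9, 294 without these and Ctrl 3 and 8 (chosen after seeing the data), and 395 to 1792 with 1 heart left out, highest without hMut 2. The 10 called pathway genes became 16 with limma-voom, 6 without hMut 6 and 9 and Ctrl 3 and 8, and 8 to 18 with 1 heart left out. The cause of these shifts was not tested. Replicate numbers name different mice, and across the 8 pairs of same-numbered hearts the correlation of deviations lay between -0.23 and 0.34, over 0.1 in 1 pair, with 1 pair in which a heart correlated best with its own number. With the replicate block, 195 genes, 0 members and 4 pathway genes were called.

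Some member log2 fold changes turned sign, none of them called. Without hMut 6 and 9 they were -0.12 for *Mcm5*, -0.0048 for *Mcm6*, -0.021 for *Mcm7*, -0.038 for *Pcna*, -0.12 for *Ccna2*, -0.25 for *Ccnb1*, -0.073 for *Ccnb2*, -0.12 for *Bub1*, -0.21 for *Cdc20*, -0.065 for *Nusap1* and -0.077 for *Top2a*. Without Ctrl 3 and 8 as well they were -0.16 for *Mcm5*, -0.033 for *Mcm6*, -0.037 for *Mcm7*, -0.038 for *Pcna*, -0.044 for *Tk1*, -0.057 for *Ccna2*, -0.34 for *Ccnb1*, -0.16 for *Ccnb2*, -0.097 for *Cdk1*, -0.0085 for *Plk1*, -0.14 for *Bub1*, -0.0093 for *Bub1b*, -0.28 for *Cdc20*, -0.062 for *Kif20a*, -0.14 for *Nusap1*, -0.11 for *Prc1* and -0.13 for *Top2a*. limma-voom gave -0.10 for *Mcm5*, -0.058 for *Mcm7*, -0.042 for *Pcna* and -0.011 for *Cdc20*, upper-quartile factors -0.00050 for *Pcna*, the replicate block -0.0042 for *Pcna* and -0.046 for *Cdc20*, and sex as a term -0.017 for *Ccnb1*. With 1 heart left out the value ran from -0.095 to 0.15 for *Mcm5*, -0.027 to 0.069 for *Mcm7*, -0.013 to 0.037 for *Pcna*, -0.019 to 0.37 for *Ccna2*, -0.15 to 0.18 for *Ccnb1*, -0.032 to 0.39 for *Bub1*, -0.074 to 0.18 for *Cdc20* and -0.34 to 0.032 for *Ube2c*.

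Precision differed between members. Mean counts per heart ran from 35.9 to 895, and the widest 95% interval, that of *Plk1*, reached 0.78 on either side of its log2 fold change.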
